A study of Mus musculus with 6 samples.

Results

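Caveolins and cavins are the coat proteins of caveolae, the small flask-shaped pits of the plasma membrane, and the genes described here are the 3 caveolin genes (Cav1, Cav2 and Cav3) and the 4 cavin genes (Cavin1, Cavin2, Cavin3 and Cavin4) of the mouse. They were taken by gene symbol, and all 7 were found among the 27179 genes of the table. Caveolins are hairpin membrane proteins that assemble in the secretory pathway and build the membrane core of the pit, and cavins are soluble proteins that join at the cell surface and form its outer coat. Caveolae are abundant in smooth muscle, endothelium, fat cells and striated muscle, where they hold spare membrane against stretch and gather receptors, channels and kinases. Cavin3 has also been tied to the clock in other cells, where its product binds the period protein PER2.

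Messenger RNA had been sequenced from primary vascular smooth muscle cells of the mouse aorta, in 3 libraries labelled Bmal1 KO and 3 labelled wild type (WT). Bmal1 encodes the partner of CLOCK in the transcription factor that drives the circadian clock. Both groups had spent 7 days in what the labels name diabetic condition medium, which is growth medium with glucose at 4.5 g/L and hydrogen peroxide at 0.3 mM. The labels name neither the knockout allele and how the deletion was made nor the sex, age and number of the mice. Nothing in the labels ties replicates to separate cultures or animals. P-values therefore measure the spread between these libraries, which may be technical. Recovered reads per library came to 32503525 to 38074293 for Bmal1 KO and 39129037 to 44657471 for WT. The targeted gene, listed as Arntl, was 1.73-fold higher in libraries labelled Bmal1 KO (limma adjusted p = 0.000135), and whole-gene counts cannot show a missing exon, so every direction below is between labels. Xist was higher by 6.43 on the log2 scale and Y-linked Ddx3y lower, at -5.32 (limma adjusted p = 6.09e-05 and 2.64e-08), so label and sex-linked expression split the libraries in the same way and cannot be told apart.

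Of the 7 genes, 5 were higher in libraries labelled Bmal1 KO and none was lower. Cavin1 rose 2.92-fold, Cav1 2.80-fold, Cavin3 2.27-fold, Cavin2 1.86-fold and Cavin4 1.76-fold. Cav2 and Cav3 did not pass the test. Across all 16086 genes tested 71.1% passed, 36.2% higher and 34.9% lower, so a single call is common in this comparison. The count of lower members was 0 also at an unadjusted p under 0.05 in limma, and with edgeR, DESeq2 and voom. In 6 of the 7 genes the libraries labelled Bmal1 KO did not overlap the WT libraries, and in all 6 they lay above. Among all genes tested 76.7% did not overlap and 38.5% did so upwards. The 6 include scarce Cav3, whose groups were apart only after scaling, as Bmal1 KO replicate 3 and WT replicate 1 both held 11 reads. In cultures measured in bulk, more cells of a type and more RNA per cell cannot be told apart.

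**Figure D1:**
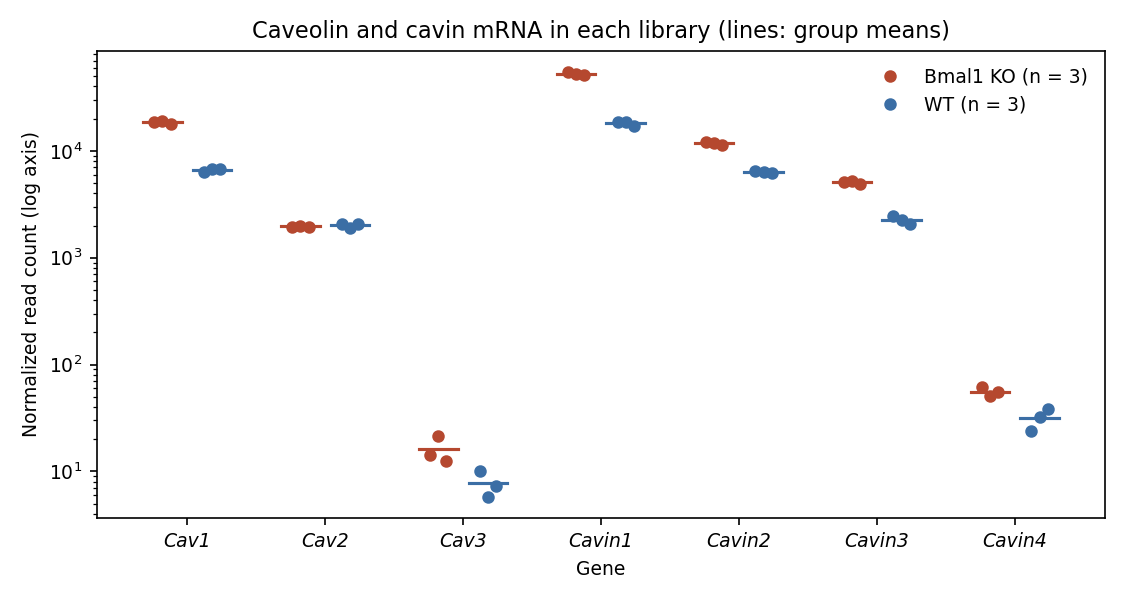
Normalized read count (log axis) of each caveolin and cavin gene in each library, with 3 libraries labelled Bmal1 KO (red) left of 3 WT libraries (blue) and lines at the group means. The groups lie apart for every gene except Cav2, whose means were 1966 and 2006.

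Cav1 encodes caveolin-1, without which cells outside striated muscle do not form caveolae. Libraries labelled Bmal1 KO held 18733, 19052 and 17808 normalized counts of Cav1, and WT libraries held 6315, 6733 and 6817. The lowest of the first 3 was far above the highest WT library, and the means were 18531 ± 646 for Bmal1 KO and 6622 ± 269 for WT (SD, n = 3). This is a log2 fold change of 1.48 (SE 0.062, limma adjusted p = 6.45e-07), larger in size than that of 76.8% of all genes tested.

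Cav2 encodes caveolin-2, which relies on caveolin-1 to leave the Golgi and joins it in mixed oligomers. It had 1950.4, 1996 and 1951 normalized counts in libraries labelled Bmal1 KO, against 2053, 1906 and 2058 in WT libraries. The 2 groups overlapped, with WT replicate 2 below every library labelled Bmal1 KO and the other WT libraries above them all. The means were 1966 ± 26.3 for Bmal1 KO and 2006 ± 86.4 for WT (SD, n = 3). The log2 fold change of Cav2 was -0.028 (SE 0.061, limma adjusted p = 0.689), with a 95% interval of -0.17 to 0.11 that is far below the interval of Cav1, 1.34 to 1.63. The sign of the Cav2 difference turned with upper-quartile scaling (0.011).

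Cav1 and Cav2 are neighbours on chromosome 6 of the mm10 build, read in the same direction. Cav2 spans 17281185 to 17289130 and Cav1 17306335 to 17341328, which leaves 17.2 kb between them. Since these neighbours differed in response, their promoter windows are printed here, from RefSeq on GRCm38.p6 (the assembly behind mm10), each running from 250 bases before to 50 after the annotated start. Capitals mark matches on either strand to the E-box (CACGTG), the TEAD site (GGAATG), the GC box (GGGCGG), the AP-1 site (TGANTCA), the TATA box (TATAAA) or the CArG box. The Cav1 window is chr6:17306085-17306384 and the Cav2 window chr6:17280935-17281234, both on the plus strand.
Cav1: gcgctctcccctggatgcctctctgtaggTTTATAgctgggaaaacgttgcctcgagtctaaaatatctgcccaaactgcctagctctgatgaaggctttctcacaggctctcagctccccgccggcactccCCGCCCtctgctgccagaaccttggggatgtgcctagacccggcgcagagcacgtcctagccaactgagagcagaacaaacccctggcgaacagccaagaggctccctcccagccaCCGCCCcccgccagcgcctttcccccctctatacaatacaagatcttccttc
Cav2: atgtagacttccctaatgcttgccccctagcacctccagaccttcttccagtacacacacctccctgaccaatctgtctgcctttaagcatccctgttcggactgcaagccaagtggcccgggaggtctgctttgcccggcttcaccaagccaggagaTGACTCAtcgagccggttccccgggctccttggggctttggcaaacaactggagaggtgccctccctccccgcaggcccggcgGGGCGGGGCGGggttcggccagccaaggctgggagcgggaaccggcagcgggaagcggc

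The Cav1 window held 2 GC boxes, at positions -118 and -2 from the start, and a TATAAA match on the minus strand at -221. The Cav2 window held 2 GC boxes that overlap by a base, at -9 and -4, and an AP-1 match at -92. GC boxes are common, being present in 35.7% of the 32851 promoter windows of this length, while AP-1 matches stood in 7.81%, TATA boxes in 13.6% and E-boxes, the sequence that CLOCK and BMAL1 bind, in 7.15%. Neither window held an E-box, a CArG box or a TEAD match, which says only that these letters are not in these windows. A further Cav1 start in the same table, at chr6:17307390-17307689, had 0 matches. Of the 7 genes 6 had a promoter in the table, and Cavin3 did not. An antisense gene, Gm15581, overlaps both Cav1 and Cav2, and the labels do not say whether counting used strand, so its reads cannot be told apart from theirs.

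Cav3 encodes the caveolin of striated muscle and was close to the detection limit. It had 14, 18 and 11 reads in libraries labelled Bmal1 KO and 11, 7 and 8 reads in WT libraries. In normalized counts these were 14.3, 21.6 and 12.6 for Bmal1 KO and 10.1, 5.80 and 7.37 for WT. The groups did not overlap in normalized counts, though Bmal1 KO replicate 3 and WT replicate 1 both held 11 reads. The log2 fold change of 0.96 (SE 0.39) missed the threshold (limma adjusted p = 0.0569). Cav3 entered the test through the 3 libraries labelled Bmal1 KO and 1 WT library at 10 or more. With a pseudocount of 10 it passed (limma adjusted p = 0.0485), as it did once a length and GC trend of transcripts was removed (0.0297), and its adjusted p ran from 0.0297 to 0.220 over the 17 alternatives in which it was tested, which leave out the filter of 1 CPM in 3 libraries.

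**Figure D2:**
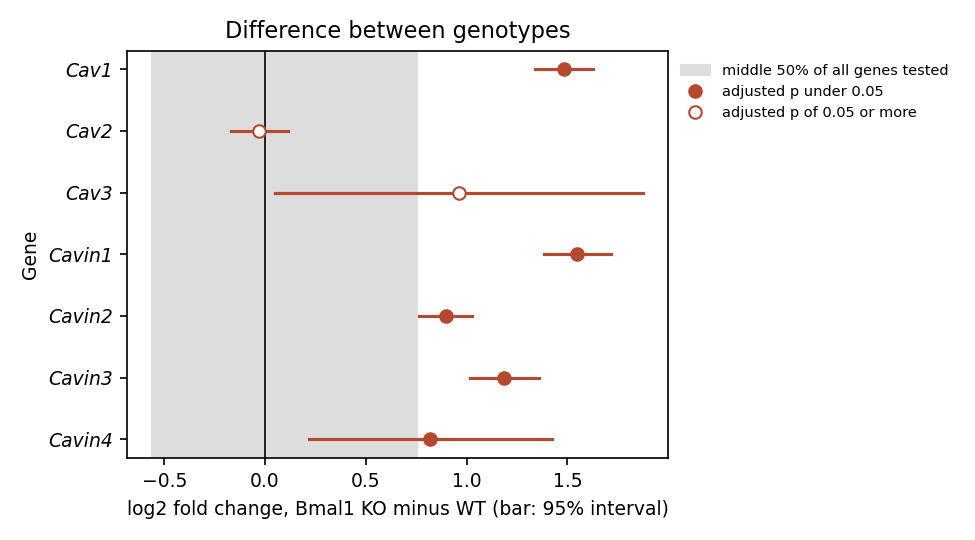
Log2 fold change of each gene (Bmal1 KO minus WT, points) with its 95% interval from limma (bars), filled where the adjusted p is under 0.05. The grey band holds the middle 50% of all genes tested, from -0.56 to 0.75, and Cav1, Cavin1, Cavin2 and Cavin3 have whole intervals above it.

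Cavin1, also known as PTRF, is the cavin without which the coat does not form. It had the highest count of the family, with 54694, 52742 and 51261 normalized counts in libraries labelled Bmal1 KO and 18424, 18613 and 17242 in WT libraries. Each of the first 3 was over every WT library by a wide margin. The means of 52899 ± 1722 for Bmal1 KO and 18093 ± 743 for WT (SD, n = 3) give a log2 fold change of 1.55 (SE 0.072, limma adjusted p = 1.10e-06).

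Cavin2 (SDPR) binds phosphatidylserine and bends membranes. Libraries labelled Bmal1 KO had 12135, 11829 and 11382 normalized counts of Cavin2, against 6459, 6348 and 6183 in WT libraries, with no overlap. The log2 fold change of 0.90 (SE 0.057, limma adjusted p = 5.85e-06) was smaller than that of Cavin1. An antisense gene, 9330175M20Rik, overlaps Cavin2 and had at most 6.85 normalized counts in any library.

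Cavin3 (PRKCDBP) is named for its binding of protein kinase C delta. It had 5144, 5225 and 4942 normalized counts in libraries labelled Bmal1 KO and 2432, 2252 and 2051 in WT libraries, again with no overlap. Its log2 fold change was 1.19 (SE 0.074, limma adjusted p = 5.48e-06). Cavin3 lies on chromosome 7, which also carries Bmal1, at 105480616 to 105482197. An unclassified transcript, Gm45667, overlaps it there.

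Cavin4 (MURC), the cavin of striated and cardiac muscle, was scarce. It had 62.2, 50.4 and 54.8 normalized counts in libraries labelled Bmal1 KO and 23.8, 32.3 and 38.7 in WT libraries. The groups did not overlap, and the log2 fold change was 0.82 (SE 0.26, limma adjusted p = 0.0219). The Cavin4 call did not hold without Bmal1 KO replicate 1 (limma adjusted p = 0.0707), Bmal1 KO replicate 3 (0.0554) or WT replicate 1 (0.0637), and its adjusted p ran from 0.0114 to 0.0707 over the alternatives.

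The promoter windows of the 2 cavins with most reads are shown because Cavin1 and Cavin2 rose by different amounts. They are chr11:100970568-100970867 on the minus strand for Cavin1 and chr1:51288876-51289175 on the plus strand for Cavin2, with the same motifs in capitals.
Cavin1: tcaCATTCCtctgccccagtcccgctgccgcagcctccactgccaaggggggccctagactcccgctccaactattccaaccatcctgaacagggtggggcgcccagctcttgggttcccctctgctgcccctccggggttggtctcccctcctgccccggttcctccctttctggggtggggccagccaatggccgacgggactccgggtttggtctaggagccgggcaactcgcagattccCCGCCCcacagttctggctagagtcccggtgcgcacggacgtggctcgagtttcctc
Cavin2: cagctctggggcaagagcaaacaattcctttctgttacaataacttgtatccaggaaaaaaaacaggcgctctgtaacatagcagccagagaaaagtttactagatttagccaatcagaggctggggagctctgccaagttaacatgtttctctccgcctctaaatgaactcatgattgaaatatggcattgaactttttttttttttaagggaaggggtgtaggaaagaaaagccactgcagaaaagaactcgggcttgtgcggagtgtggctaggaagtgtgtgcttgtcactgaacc

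The Cavin1 window had a GC content of 66.7%, with a GC box at -7 and a TEAD match at -247. The Cavin2 window had a GC content of 43.3% and 0 matches to the 6 motifs, against a median GC content of 52.7% over all windows. TEAD matches stood in 14.7% of all windows and CArG boxes in 1.63%. No caveolin or cavin window held an E-box or a CArG box, among 8 windows of 6 genes, while Cav3 had a TEAD match at 18 and Cavin4 a TATA box at -30.

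Levels of different genes were compared per kb of exon, with exon lengths from GENCODE M21 and not from the annotation of the deposited table. Cavin1 was the most abundant member in both groups, at 14747 ± 480 normalized counts per kb in libraries labelled Bmal1 KO and 5044 ± 207 in WT (SD, n = 3). Cav1 came next in libraries labelled Bmal1 KO with 5381 ± 188, and was at 1923 ± 78.0 in WT, where Cavin2 stood at 2072 ± 45.6 and was thus close to Cav1. Cavin2 had 3857 ± 124 normalized counts per kb in libraries labelled Bmal1 KO. The order of Cav1 and Cavin2 therefore differed between the groups, though in WT the highest Cav1 library (1979) and the lowest Cavin2 library (2024) were near each other. Cavin3 followed with 3071 ± 87.8 for Bmal1 KO and 1351 ± 115 for WT, and Cav2 with 589 ± 7.88 and 602 ± 25.9. Cavin4 (27.2 ± 2.90 for Bmal1 KO and 15.4 ± 3.62 for WT) and Cav3 (13.9 ± 4.14 and 6.70 ± 1.87) were the lowest by a wide gap. Other members differed from their neighbours in this order by more than their SDs in both groups.

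The make-up of the caveolin mRNA differed between the groups. Cav1 made up 89.9 ± 0.225% of caveolin mRNA per length in libraries labelled Bmal1 KO and 76.0 ± 1.31% in WT (SD, n = 3). The share of Cav2 was 9.86 ± 0.252% for Bmal1 KO and 23.8 ± 1.24% for WT, and Cav3 was at 0.232 ± 0.0623% and 0.266 ± 0.0804%. The Cav2 share was 9.69%, 9.73% and 10.1% in the 3 libraries labelled Bmal1 KO, and 25.05%, 22.6% and 23.7% in the WT libraries, with no overlap. As Cav2 per kb was 589 for Bmal1 KO and 602 for WT, this share mostly restates the Cav1 difference. Among the cavins, Cavin1 held 68.0 ± 0.311% for Bmal1 KO and 59.5 ± 0.605% for WT. Cavin2 held 17.8 ± 0.0400% for Bmal1 KO and 24.4 ± 0.523% for WT, and Cavin3 14.2 ± 0.304% and 15.9 ± 0.776%.

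**Figure D3:**
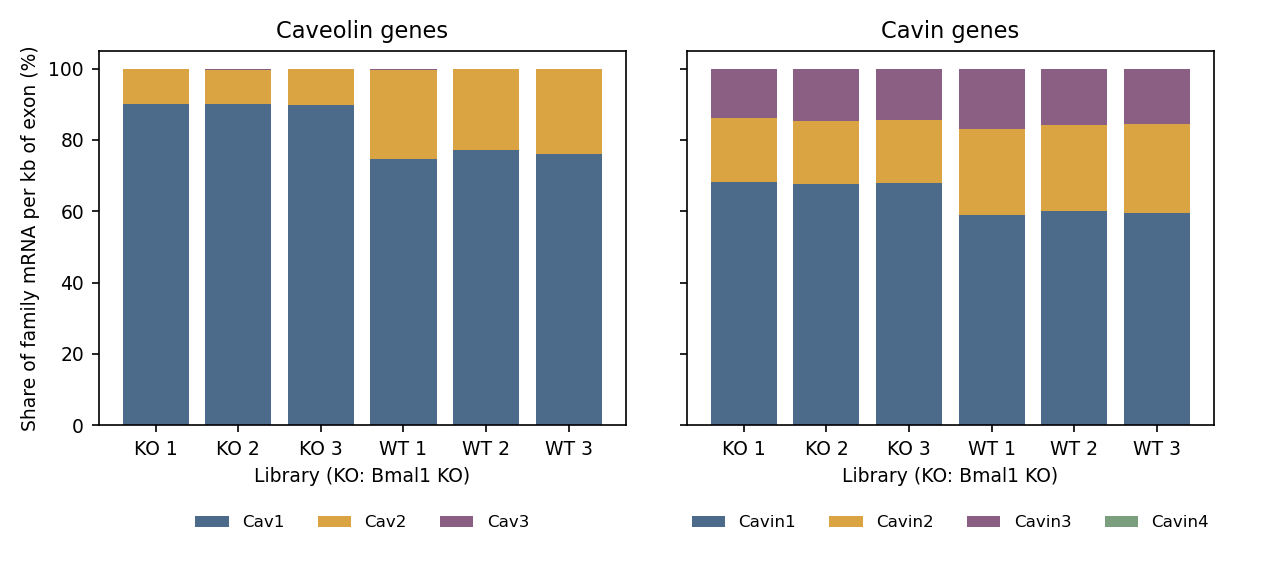
Share of each gene in the caveolin (left) and cavin (right) mRNA of each library, in percent of the summed normalized counts per kb of exon. Cav2 is a smaller part of the caveolin mRNA in the 3 libraries labelled Bmal1 KO (9.86% on average) than in the 3 WT libraries (23.8%), and Cav3 and Cavin4 are too scarce to be seen.

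Ratios within a library do not depend on how libraries are scaled, apart from the pseudocount of 1, which matters for scarce genes. The log2 ratio of Cav2 to Cav1 was -3.26, -3.25 and -3.19 in libraries labelled Bmal1 KO and -1.62, -1.82 and -1.73 in WT libraries, a difference of -1.51. Cavin2 to Cav1 differed by -0.59, Cavin4 to Cav1 by -0.66 and Cavin3 to Cav1 by -0.30, and in these 4 ratios the groups did not overlap. Every ratio to Cav1 carries the Cav1 difference itself (log2 fold change 1.48). The share of all genes whose ratio to Cav1 did not overlap was not computed, so this is not shown to be particular to these genes. Each had an exact two-sided permutation p of 0.1, the smallest that 3 against 3 libraries allow, or 0.15 adjusted over the 6 ratios. Cavin1 to Cav1 differed by 0.063, less than its spread in WT, at 1.51 ± 0.0398 for Bmal1 KO and 1.45 ± 0.104 for WT (SD, n = 3, exact permutation p = 0.4). The core coat genes Cav1 and Cavin1 were thus present at 2.74 ± 0.0751 Cavin1 transcripts per Cav1 transcript, by counts per kb, in libraries labelled Bmal1 KO and 2.63 ± 0.188 in WT. The Cav3 ratio differed by -0.52 and its groups overlapped (exact permutation p = 0.2). With other pseudocounts or single libraries left out, that difference ran from -0.93 to -0.30.

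Together the 7 genes reached 2330.3 ± 61.1 CPM of recovered reads in libraries labelled Bmal1 KO and 959 ± 8.82 in WT (SD, n = 3). Cavin1 alone accounted for 1364 ± 41.0 for Bmal1 KO and 491 ± 12.1 for WT, and Cav1 for 478 ± 14.1 and 180 ± 10.4. Cav2 stood at 50.7 ± 0.483 CPM for Bmal1 KO and 54.5 ± 2.83 for WT on this scale, on which the groups barely did not overlap (51.2 against 51.5). With total-count scaling Cav2 did not pass (log2 fold change -0.10, limma adjusted p = 0.175). In normalized counts 76.7% of all genes tested did not overlap.

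Profiles over the 6 libraries were compared by the root-mean-square difference of log2 values centred on each gene's mean, among 12059 named genes with a mean of at least 100. The profile nearest to Cav1 was that of Phldb2, which encodes a protein of the cell cortex, at 0.026, followed by Ckap2l, Tshz1, Jak1 and Tspan5 at 0.029 to 0.037. Those nearest to Cavin1 were Nectin1, at 0.027, and then the smooth muscle actin gene Acta2 and Rab32, Plpp5 and Lims2, at 0.046 to 0.049. Cavin1 was the 37th nearest to Cav1, at 0.072, and Cavin3 came at rank 380, at 0.18. Cav2 was at rank 5177, at 0.76. With 2 groups of 3 libraries this measure reflects mainly the size of the difference between groups.

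Genes around the Cav2 and Cav1 pair moved both ways. They are the 3 nearest tested genes on each side, chosen after the values of the pair were seen. On the Cav1 side, the hepatocyte growth factor receptor gene Met had 932 ± 86.4 normalized counts in libraries labelled Bmal1 KO and 2199 ± 270.2 in WT (SD, n = 3), a log2 fold change of -1.23 (limma adjusted p = 3.67e-05). The actin-capping gene Capza2 and St7 rose, both by 0.41 on the log2 scale. On the Cav2 side, the focal adhesion gene Tes rose by 0.37, while Tfec (-1.51) and Mdfic (-0.65) fell. Tfec had only 10.8 ± 6.92 normalized counts for Bmal1 KO and 29.0 ± 4.99 for WT, and its call (limma adjusted p = 0.0207) was lost without Bmal1 KO replicate 2 (0.0611), Bmal1 KO replicate 3 (0.0559) or WT replicate 1 (0.0642).

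**Figure D4:**
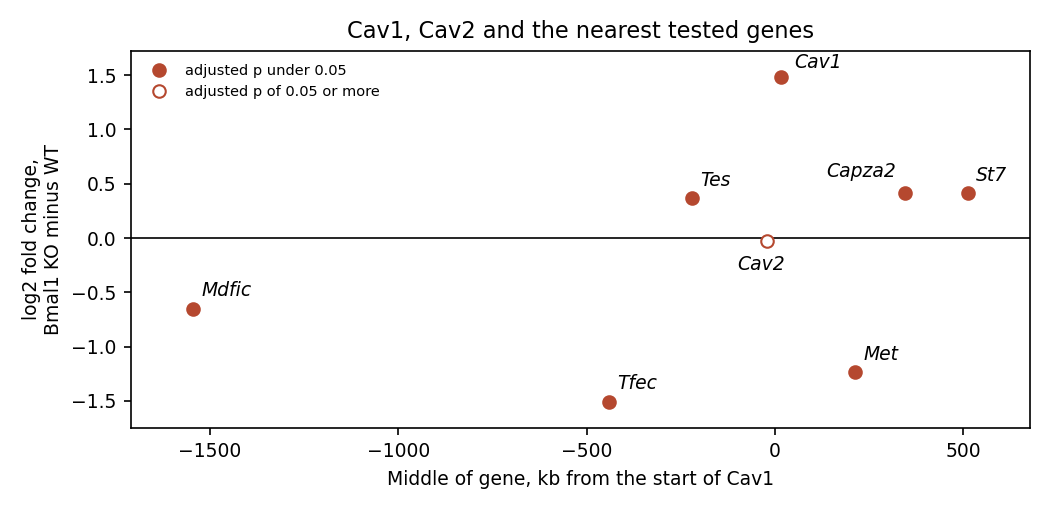
Log2 fold change (Bmal1 KO minus WT) of Cav1, Cav2 and the 3 nearest tested genes on each side, against the distance of the middle of each gene from the start of Cav1, filled where the limma adjusted p is under 0.05. Cav1 at 1.48 is the highest point, Cav2 beside it lies at -0.028, and Met and Tfec lie below -1.

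Genes of proteins that bind the neck and coat of caveolae, listed together with paralogs such as Pacsin1, Dnm1 and Dnm3, were mostly higher. Among 12 such genes, 11 rose, 0 fell (0 also at an unadjusted p under 0.05 in limma, and with edgeR, DESeq2 and voom) and 1 missed the threshold. The median log2 fold change was 1.28, against 36.2% higher and a median of -0.012 over all genes tested. This list was chosen with earlier results of these data known, so its count is a description and not an independent test. Ehd2 encodes the ATPase that rings the caveola neck. It had 22332, 23885 and 22164 normalized counts in libraries labelled Bmal1 KO and 8381, 9574 and 8635 in WT libraries, a log2 fold change of 1.36 (SE 0.073, limma adjusted p = 2.48e-06). Its paralogs Ehd4, Ehd3 and Ehd1 rose by 1.41, 2.13 and 0.89 on the log2 scale. Ror1, a receptor of the tyrosine kinase family that binds caveolin-1 and cavin-1, rose 12.6-fold, to 1681 ± 70.7 normalized counts in libraries labelled Bmal1 KO, against 134 ± 33.4 in WT (SD, n = 3). The actin crosslinker gene Flna, whose product links caveolin-1 to stress fibres, had a log2 fold change of 1.19.

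Members of this group that shape or cut membranes moved unevenly. Pacsin2, which encodes the membrane-bending protein of caveolae outside muscle, had 7728 ± 81.4 normalized counts in libraries labelled Bmal1 KO and 7635 ± 536 in WT (SD, n = 3, log2 fold change 0.020, limma adjusted p = 0.800), and its sign turned with TMM and total-count scaling. Pacsin1 and Dnm3, whose products are best known from neurons, had log2 fold changes of 2.73 and 2.22. Dnm2, the widely expressed dynamin that pinches vesicles off, was at 0.43 and Dnm1 at 0.45. Pacsin3 was at 0.28, a call (limma adjusted p = 0.0204) lost with TMM scaling (0.0509) and without Bmal1 KO replicate 1 (0.0751), Bmal1 KO replicate 2 (0.0536) or WT replicate 3 (0.0692). Ehd1, Flna, Pacsin1, Pacsin2, Pacsin3 and the dynamin genes were named after their values were seen.

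Genes of signalling proteins found in caveolae moved both ways. There were 5 of 10 that rose, 1 that fell and 4 that missed the threshold, where 36.2% of all genes tested were higher and 34.9% lower, and the median log2 fold change was 0.37. The cation channel gene Trpc1 was at 1.93, and the kinase genes Abl1 and Prkca at 0.51 and 0.46, of which the Prkca call was lost with the length and GC trend removed (log2 fold change 0.10, limma adjusted p = 0.0892). The insulin receptor gene Insr fell, at -0.47, with 1894 ± 57.7 normalized counts in libraries labelled Bmal1 KO and 2648 ± 354 in WT (SD, n = 3). Nos3, whose enzyme caveolin-1 binds in endothelium, was low and did not pass, at 52.1 ± 12.3 for Bmal1 KO and 38.0 ± 6.29 for WT (limma adjusted p = 0.176), and was named after its values were seen.

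Flotillins and the clathrin coat, which serve other membrane domains and another endocytic route, moved both ways. Here too 5 of 10 rose, 1 fell and 4 missed the threshold, so that no more were called than the 71.1% of all genes tested. By direction, 36.2% of all genes tested were higher and 34.9% lower, and the median log2 fold change of the list was 0.21. The clathrin light chain gene Cltb rose most, at 1.30, and the adaptor genes Ap2m1 and Ap2b1 were at 0.79 and 0.60. Flot1 fell, at -0.41, with 9308 ± 347 normalized counts in libraries labelled Bmal1 KO and 12362 ± 824 in WT (SD, n = 3). Genes of the dystrophin complex, a membrane partner of caveolins in muscle, were also examined, 13 of 14 having enough counts to be tested. Of these 8 rose, 2 fell and 3 missed the threshold, where 36.2% of all genes tested were higher, 34.9% lower and 71.1% called. Their median log2 fold change was 0.54. As the list was chosen with earlier results of these data known, its count is a description. Dystrophin itself, Dmd, was at 3.04, Sgcd at 1.73 and Sspn at 1.17, while Sntb1 (-1.38) and Sgce (-0.74), named after their values were seen, fell.

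**Figure D5:**
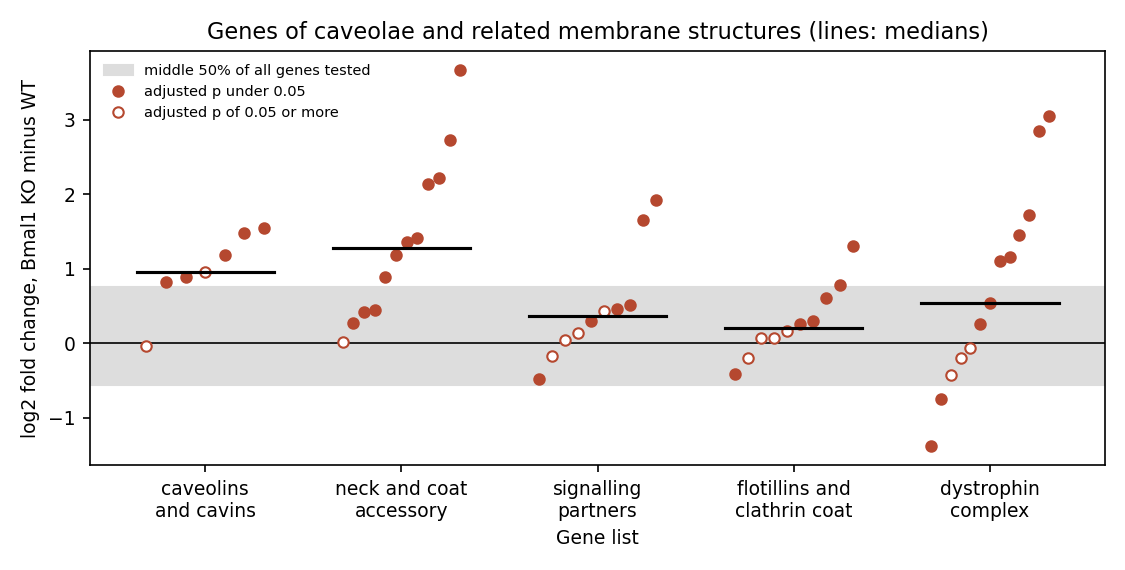
Log2 fold change (Bmal1 KO minus WT) of each tested gene in 5 lists, filled where the limma adjusted p is under 0.05, with lines at the list medians and a grey band over the middle 50% of all genes tested. The line of the caveolins and cavins is the value of Cav3, and the other medians are 1.28 for neck and coat accessory genes, 0.37 for signalling partners, 0.21 for flotillins and the clathrin coat, and 0.54 for the dystrophin complex.

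Markers of the labelled cell type and of endothelial cells were mostly higher. The few tested for adipocytes and striated muscle went both ways, and several markers were near the floor in a group. Across all 16086 genes tested 71.1% passed, 36.2% higher and 34.9% lower, so the call of a single marker is common too. Of 8 smooth muscle markers, including Acta2 and Tagln, 7 rose and 1 did not pass, with sums of 100035 to 108351 normalized counts in libraries labelled Bmal1 KO and 28663 to 32773 in WT. Of 10 endothelial markers 7 rose, 1 fell and 2 did not pass, with sums of 1073 to 1404 for Bmal1 KO and 768 to 892 for WT. The endothelial junction gene Cdh5 was at 82.5, 52.8 and 112.0 for Bmal1 KO and, near the floor, at 12.8, 4.15 and 30.4 for WT. Emcn entered the test only through the libraries labelled Bmal1 KO, with 6.42, 9.95 and 7.37 for WT. Cldn5 had 18.3, 1.66 and 5.53 for WT, and Tek (mean 10.2) and Tie1 (16.3) were also near the floor there. The count of higher endothelial markers thus depends in part on the filter. Egfl7 went the other way, at 169 ± 50.4 for Bmal1 KO and 417 ± 39.2 for WT (SD, n = 3), and Kdr and Erg did not pass. Of 7 adipocyte markers 5 stayed below 10 in every library, Adipoq and Plin1 among them, while Fabp4 rose 3.33-fold and Retn fell, at -1.58 on the log2 scale. Retn was near the floor for Bmal1 KO, at 9.17, 8.39 and 6.85. It entered the test only through the WT libraries, at 33.0, 21.6 and 24.9, so its call is no sign of direction for adipocyte markers. Of 10 striated muscle markers 5 were tested, of which 3 rose, 1 fell and 1 did not pass. Sums over the 10 were 285 to 630 for Bmal1 KO and 167 to 264 for WT, and Myog was at 0 in every library. The largest part of the Bmal1 KO sums was Acta1, which was uneven, at 438, 92.3 and 359, against 91.7, 31.5 and 127 for WT. Its groups overlapped (limma adjusted p = 0.0466). Tnnt3, which fell, was near the floor for Bmal1 KO, at 5.10, 8.39 and 18.3. Fibroblast markers gave 2 higher and 4 lower of 6, with sums of 16413 to 17316 for Bmal1 KO and 40007 to 41479 for WT. The difference in these sums lay in 1 gene, Dcn, at 2403 ± 77.2 for Bmal1 KO and 26320 ± 1947 for WT (SD, n = 3). Pdgfra, the most abundant of the others, was higher for Bmal1 KO, at 12442 ± 547 against 10681 ± 916. Macrophage markers gave 5 higher and 1 lower of 6, with sums of 1924 to 2326 for Bmal1 KO and 840 to 1089 for WT. The part of these cells in the caveolin and cavin differences was not tested.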

How the data were processed

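The authors' deposited table holds a signal for each gene in each library, namely normalized read counts, with Trimmomatic, HISAT2, featureCounts and mm10 named in the submitters' processing notes without roles. Per the labels' protocols, 1.0 µg of total RNA went into stranded mRNA libraries. Dividing each deposited signal by its library's smallest value above 0 gave whole reads (100% within 0.01), and the implied size factors, 0.834 to 0.981 for Bmal1 KO and 1.09 to 1.21 for WT, equal median-ratio factors. All 6 value columns were mapped by library name, with 0 left unmapped.

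The main test was limma 3.58.1 (R 4.3.3) with a trend of variance on mean, applied to log2(value + 1), over genes with at least 10 in at least 3 libraries, with group as the only term. P-values were Benjamini-Hochberg adjusted over all genes tested, with a threshold of 0.05. This log2 scale understates changes of scarce genes. Folds are ratios of group means. The edgeR 4.0.16 quasi-likelihood test and DESeq2 1.42.0 ran on recovered reads as alternatives, beside voom, other scalings, pseudocounts and filters, the replicate number as a block and each library left out. The limma and edgeR steps were tested on simulated data. No pair of replicates agreed within sampling noise. Members and gene lists were chosen with earlier results of these data known. Named genes were the members, up to 4 per list with the smallest adjusted p, the 5 nearest profiles to Cav1 and to the cavin with most counts, and Arntl, Xist and Ddx3y. A gene that this rule takes is not reported here. Others are marked as chosen after their values were seen, as are the marker genes named singly. Coordinates are RefSeq genes on GRCm38.p6, counted from 1, and motif positions count the start base as 0.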

Additional observations from a re-analysis of the deposited data

How the results depend on the processing

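The count of 5 higher members was 4 to 5 when single libraries were left out, always through Cavin4, and 6 with a pseudocount of 10 or with the length and GC trend removed (an alternative chosen after seeing the data), through Cav3. Over the 18 alternatives the log2 fold change ran from 1.41 to 1.63 for Cav1, 1.47 to 1.63 for Cavin1, 0.82 to 1.04 for Cavin2, 1.11 to 1.35 for Cavin3, 0.64 to 0.98 for Cavin4 and -0.10 to 0.011 for Cav2, the last reversing with upper-quartile scaling (0.011). Pacsin2 reversed with TMM scaling (-0.041), total-count scaling (-0.054), edgeR (-0.014) and voom (-0.011), and ran from -0.024 to 0.074 with single libraries left out. Lower calls among signalling partners, and among flotillins and clathrin genes, were 2 in place of 1 with TMM scaling, total-count scaling, edgeR, voom and the length and GC trend removed, and 1 to 2 for flotillins and clathrin genes when single libraries were left out. Lower calls in the dystrophin complex were 4 in place of 2 with the length and GC trend removed. The cause was not tested.

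Same-numbered libraries did not deviate together (correlations of -0.0045, 0.026 and 0.084), nor did every library correlate best with its own number. The correlations thus gave no sign of pairing by number, but with 3 libraries per group they cannot exclude it. With the replicate number as a block, 5869 genes were higher and 5687 lower, against 5816 and 5619 without it, and 5 members were higher. Ratios to Cav1 kept their direction with every library left out, with -1.56 to -1.46 for Cav2 and 0.0076 to 0.11 for Cavin1. Depth limits Cav3, with 43 reads in libraries labelled Bmal1 KO and 26 in WT.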
